A study of Mus musculus with 4 samples.

Results

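Immature type 1 conventional dendritic cells (cDC1) of the mouse spleen were compared by how much CD103 they carried on their surface. The members were chosen by RNA and antibody counts, and the groups compared were then selected on surface CD103 itself, so CD103 levels are given as a description and not tested. By this rule 10172 of 31790 cell barcodes (32.0%) were members, 3977 in library 1 and 6195 in library 2. A member had at least 500 genes, at least 1000 RNA UMIs (unique molecular identifiers, each counting 1 captured molecule) and under 10% mitochondrial UMIs. It also had at least 3 UMIs of the XCR1 antibody and at most 2 of the CD172a antibody, which mark the cDC1 lineage. At most 1 UMI each of Ccr7 and Ccr2 RNA, 0 of Fscn1 RNA and at most 1 in sum of Ccnb1, Ccnb2, Cdc20, Cenpf, Ube2c and Hmmr kept out maturing, Ccr2-expressing and mitotic cells.

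All cells came from the spleen of untreated C57BL6 mice, genotype WT, labelled as steady-state, and the labels give no age. CITE-seq reads, in each single cell, both its messenger RNA and the DNA-tagged antibodies bound to its surface. Dendritic cells of 2 mice were enriched by negative selection and then sorted, so the mix of cell types was set by the sort, which gated cDC1 on CD64, CD11c, MHC class II, XCR1 and CD172a. The labels give 2 replicates and leave unsaid whether the replicates came from separate animals. The p-values below thus rest on how far differences between groups varied across 2 libraries, with the libraries' own difference in level taken out. That variation may be technical.

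CD103 is the alpha E integrin chain, encoded by Itgae. It reaches the surface paired with the beta7 chain, encoded by Itgb7, and the pair binds E-cadherin on epithelial cells. In the spleen CD103 is found on a part of the cDC1, cells that take up dying cells and present their antigens to CD8 T cells, and it is also known from dendritic cells of gut, lung and skin. TGF-beta, retinoic acid and the cytokine GM-CSF are known as signals that can raise CD103 in other settings.

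Each antibody was read by a DNA tag of 15 bases attached to it, and the tags below are shown because the comparison rests on reading CD103 apart from the antibodies that moved with it. They are written in capitals throughout, since the whole tag is read. The CD103 tag defined the groups, the tags of XCR1 and CD172a defined the members, and the other tags belong to antibodies with large differences between the groups.
CD103: TTCATTAGCCCGCTG
Integrin: TCCTTGGATGTACCG
CD207_mh: CGATTTGTATTCCCT
CD39: GCGTATTTAACCCGT
CD43: TTGGAGGGTTGTGCT
XCR1: TCCATTACCCACGTT
CD172a: GATTCCCTTGTAGCA
The tag nearest to that of CD103 in the panel was the XCR1 tag, with 6 differing bases, and the Integrin tag differed from that of CD103 at 10 bases. The panel names its feature 0214 only "Integrin", and it is called by that name here. As background, the supplier's numbering gives it as the antibody against integrin beta7, which the deposited files do not state.

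The value that ordered the cells was the CD103 antibody UMIs of a cell divided by all its antibody UMIs, and it is given per 10000 antibody UMIs. Within each library the cells at or above the 75th percentile formed the CD103-high group (996 and 1550 cells, values of at least 28.78 and 29.76, with the nearest cells outside at 28.71 and 29.73). The 25th percentile was 0 in both libraries, because 35.4% and 35.8% of the members had no CD103 UMI. The CD103-low group was therefore every member with 0 CD103 UMIs, 1406 and 2220 cells. The remaining cells formed a group 2 (585 and 878 cells) and group 3 (990 and 1547 cells). The median CD103-high cell had 5 CD103 UMIs in both libraries, and the most in a cell was 51 and 25. A cell with 0 UMIs may still carry CD103, since the median number of antibody UMIs in the low group was 996.5 and 865, against 1074.5 and 993 in the high group. Median RNA UMIs were 8716 and 7681 in the low and 8456 and 7918.5 in the high group.

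The members carried the RNA of immature cDC1. Xcr1, the chemokine receptor that defines the lineage, stood at 528 and 602 UMIs per 1000000 RNA UMIs (CPM) in libraries 1 and 2, against 32.9 and 59.9 in cells gated as cDC2 (at most 2 XCR1 and at least 10 CD172a antibody UMIs). Clec9a, a receptor for dying cells, stood at 321 and 361 against 25.6 and 45.2 CPM. Il12b, Ccl22 and Socs2, genes of mature dendritic cells, were at 30.3 and 36.6, 3.97 and 7.8, and 0.464 and 0.67 CPM in the members. In cells with at least 10 Ccr7 and 5 Fscn1 UMIs the same genes were at 1440 and 1530, 239 and 266, and 286 and 286 CPM. The 2 libraries shared 61 barcodes, of which 5 occurred among members of both, and this was not corrected.

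RNA of Itgae (ENSMUSG00000005947), which took no part in the choice of cells, rose with the surface protein it encodes. From the CD103-low group over groups 2 and 3 to the high group it was at 17.9, 31.5, 46.1 and 88.3 CPM in library 1, and at 15.0, 27.5, 46.4 and 85.6 CPM in library 2. Every step was upward in both libraries, and the high and low groups did not overlap. The difference of high over low was 5.41-fold, or 2.43 on the log2 scale (SE 0.07, adjusted p = 1.34e-20, edgeR quasi-likelihood test with Benjamini-Hochberg adjustment, n = 2 libraries).

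In single cells the relation of Itgae RNA to CD103 was loose. An Itgae UMI was found in 42.6% (exact binomial 95% interval 39.5 to 45.7) and 41.6% (39.1 to 44.1) of CD103-high cells, and in 11.7% (10.0 to 13.5) and 8.96% (7.81 to 10.2) of CD103-low cells. These intervals cover counting error only. The larger part of CD103-high cells thus had no captured Itgae UMI, and some CD103-low cells had one. In cDC2-type cells, which should lack the gene, the share was 1.93% and 1.27% at median RNA depths of 4224 and 4189 UMIs. With each cell thinned to 2000 RNA UMIs the shares were 13.8% and 14.7% in CD103-high, 3.24% and 2.90% in CD103-low and 0.862% and 0.437% in cDC2-type cells, leaving out 41 and 63, 47 and 84, and 30 and 28 shallower cells. The share in CD103-low cells thus stayed above that of cDC2-type cells. The rank correlation (Spearman) of a cell's Itgae CPM with its CD103 value was 0.289 over 3977 and 0.319 over 6195 members, as a description of cells that share a library and whose counts are sparse.

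**Figure D1:**
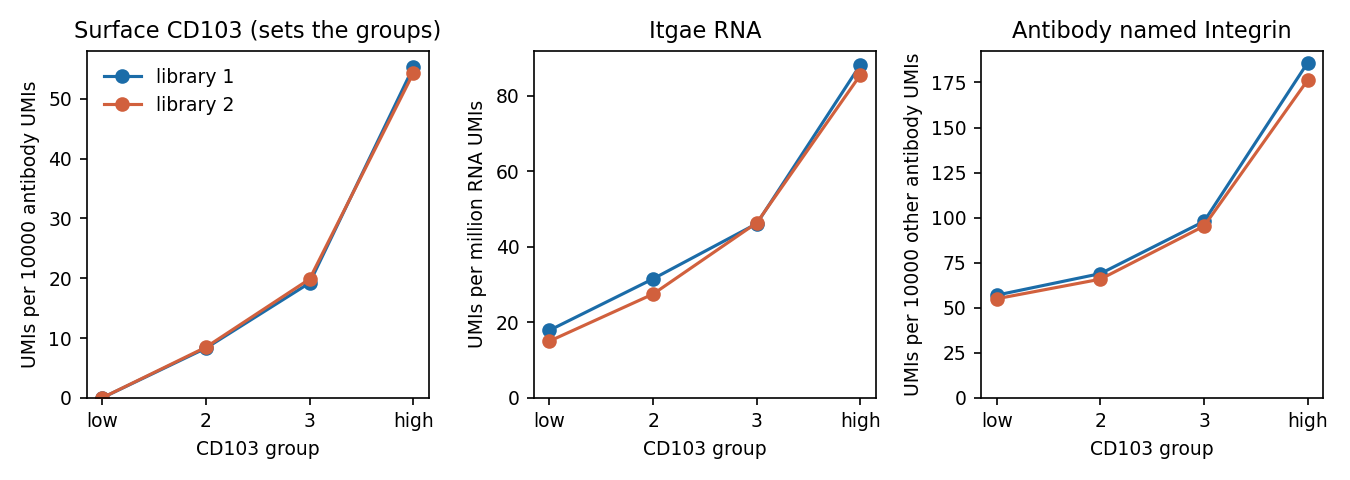
Summed surface CD103, Itgae RNA and the Integrin antibody in the 4 groups of members ordered by CD103, with 1 line per library. CD103 was used to form the groups. Itgae RNA rises from 17.9 and 15.0 to 88.3 and 85.6 CPM, and the Integrin antibody from 57.0 and 55.0 to 186 and 176 per 10000 antibody UMIs other than CD103.

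Counts were summed per group and library, and the high group was tested against the low group with the library as a block. Of 11739 genes tested, 1633 (13.9%) passed an adjusted p of 0.05, 813 (6.93%) higher and 820 (6.99%) lower in CD103-high cells. Most differences were small. The median size among the genes that passed was 0.275 on the log2 scale, 190 of them differed by over 1.5-fold and 47 by over 2-fold. Of the 1633 genes 1626 had the same sign in both libraries, and 376 rose or fell at every step over the 4 groups in both. Of 169 antibodies tested 31 (18.3%) passed, 12 (7.1%) higher and 19 (11.2%) lower, all 31 with the same sign in both libraries. Within the depth of single cells, fewer expressing cells and less RNA per cell cannot be told apart in these sums.

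The antibody that rose most with CD103 was Integrin. It was at 57.0, 68.9, 97.9 and 186 per 10000 (of all antibody UMIs without CD103, here and for the antibodies below) from the low to the high group in library 1, and at 55.0, 65.8, 95.3 and 176 in library 2. It rose at every step without overlap, by 3.34-fold (log2 1.74, SE 0.03, adjusted p = 5.65e-08 in edgeR, n = 2). Of CD103-high cells 63.0% and 63.8% were also at or above the 75th percentile of their library for Integrin, against 7.18% and 5.77% of CD103-low cells. The rank correlation of both antibodies over cells was 0.59 and 0.61. For these shares of cells and this correlation, each antibody was divided by all antibody UMIs of the cell, CD103 included. A shared divisor can link the values, and its part was not tested. They describe cells that share a library and are not replicates. RNA of Itgb7, the gene of the beta7 chain, did not pass the test, at 84.5 and 101 CPM in the low and 69.4 and 97.8 CPM in the high group (log2 -0.13, SE 0.06, adjusted p = 0.128 in edgeR). Its sign was positive at 0.10 when the low group was limited to cells with many antibody UMIs. For the top 10% of cells against the same low group the value was 0.04. It was 0.45 with at least 10 XCR1 UMIs, where Itgb7 passed (adjusted p = 0.0213 in edgeR).

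Langerin and CD39 were the next largest rises on the surface. CD207_mh, the lectin langerin that is known from Langerhans cells and CD103-positive cDC1, went from 5.46 to 12.3 per 10000 in library 1 and from 4.44 to 10.2 in library 2 (log2 1.23, SE 0.15). CD39, an ectoenzyme that breaks down extracellular ATP, went from 87.6 to 167 and from 107 to 212 (log2 1.0, SE 0.04). Both rose at every step over the 4 groups. CD38, an ectoenzyme acting on NAD, went from 158 to 222 and from 167 to 238 (log2 0.55, SE 0.03). ESAM, an adhesion molecule, went from 4.05 to 5.98 and from 3.67 to 4.90 (log2 0.54, SE 0.10). The remaining rises were smaller, from log2 0.27 for CD274 (PD-L1) to 0.09 for CD54 (ICAM-1), and took in CD272 (BTLA, log2 0.23), CD8a (log2 0.22), CD366 (TIM-3, log2 0.20), CD11c (log2 0.16) and CD11a (log2 0.11). Adjusted p-values of the 12 rises ran from 5.65e-08 to 0.0311.

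CD8a is the antibody by which splenic cDC1 are classically known. It was at 675 and 770 per 10000 in CD103-low and at 760 and 874 in CD103-high cells, so the levels of library 1 high and library 2 low overlapped, and only the differences within a library were alike. XCR1 was used to choose the members and was not tested, and its level was 58.8 and 65.9 in low and 69.1 and 69.2 in high cells.

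Among the 19 antibodies that were lower on CD103-high cells were several of adhesion and signalling receptors. CD226, an adhesion and activating receptor, went from 19.8 to 10.6 and from 16.6 to 9.06 (log2 -0.84, SE 0.08, adjusted p = 0.000427 in edgeR). It fell at every step in both libraries, with no overlap between high and low groups. CD43, the sialomucin leukosialin of blood-borne and early cells, went from 98.5 to 53.8 and from 98.3 to 54.7 (log2 -0.81, SE 0.04). CD11b_mh, an integrin chain of myeloid cells and cDC2, went from 66.3 to 37.3 and from 52.0 to 30.8 (log2 -0.75, SE 0.05). CD22, a lectin of B cells, stood at 8.43 and 8.04 against 4.44 and 4.56 (log2 -0.82, SE 0.08). All of these fell over the 4 groups in order.

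Further falls were seen for the iron uptake receptor CD71 (log2 -0.61), CD317 (BST2 or tetherin, log2 -0.58), CD102 (ICAM-2, log2 -0.55), CD41 (log2 -0.53), CD49b (log2 -0.36), CD49f (log2 -0.27), CD117 (the stem cell factor receptor KIT, log2 -0.26), CD5 (log2 -0.18) and the inhibitory lectin CD371 (log2 -0.14). IgD fell by 0.72 on the log2 scale from a low level, 3.96 and 5.50 against 2.47 and 3.07 per 10000. B cell RNA, summed over its markers, is given below, and its part in the lower IgD and CD22 was not tested. MHC class II (IA_IE), a gate of the sort, went from 1612 to 1342 and from 1333 to 1160 (log2 -0.19, SE 0.03). The groups of the 2 libraries overlapped for IA_IE. CD300LG (log2 -0.64), IL33Ra (log2 -0.62) and Mac2 (log2 -0.38) also passed, but both groups lay within the range of the 9 isotype controls, antibodies without a target, which were at 0.196 to 2.91 per 10000 in the low and high groups. None of the 9 isotype controls passed the test.

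The balance of rises and falls among antibodies depended on how the sums were scaled. With TMM scaling 12 were higher and 19 lower, with RLE size factors 17 and 13 of 30, and with totals alone 10 and 23 of 33. The median over all 169 antibodies was -0.04 on the log2 scale with TMM. With isotype control UMIs as the library size no antibody passed in edgeR, 0 also at an unadjusted p under 0.05, and the median moved to 0.10. Isotype control IgG1_Rat_l was at 32.3 per 10000 in group 2 of library 2, where 1 cell held 3374 of its 3610 UMIs, against 2.29 to 2.91 in the other 7 sums. Integrin differed by log2 1.89 in that setting, with an SE of 0.996. With IgG1_Rat_l left out of the isotype sum, an alternative chosen after seeing the data, 7 antibodies passed, 5 higher (Integrin, CD207_mh, CD39, CD38 and ESAM) and 2 lower, and the median was 0.18. IA_IE, CD5 and CD371 turned positive there (log2 0.04, 0.05 and 0.08, none past the threshold).

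**Figure D2:**
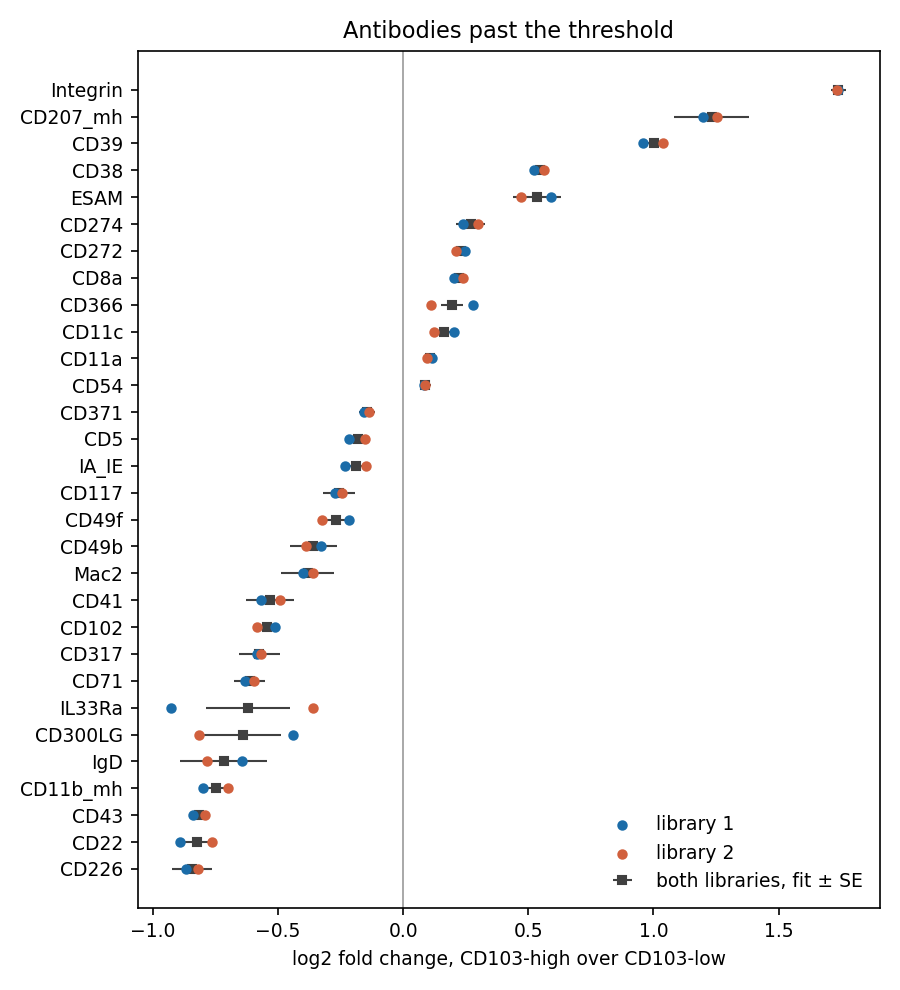
Of the 31 antibodies that passed the test 30 are plotted, with the log2 fold change of CD103-high over CD103-low cells from the fit (square, bar of 1 SE) and in each library (circles). Integrin (1.74), CD207_mh (1.23) and CD39 (1.0) lie farthest to the right and CD226 (-0.84) farthest to the left of those plotted, and both libraries lie on the same side of 0 for all 30.

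Antibodies were also counted by list, beside 7.1% higher and 11.2% lower over all 169 antibodies tested. Of 12 tested antibodies on a list of early or precursor markers 5 were lower and 0 higher, with a median log2 difference of -0.24, against 11.2% lower and a median of -0.04 over all antibodies. Among them were CD43, CD117, CD317 and CD371. CD135, the receptor FLT3, and CD115, the receptor of M-CSF, had log2 differences of -0.28 and -0.30 and did not pass (adjusted p = 0.0541 and 0.0703 in edgeR). Of 9 integrin chains tested from a list, beside CD103, 3 were higher (Integrin, CD11a and CD11c), 3 lower (CD11b_mh, CD49b and CD49f) and 3 did not pass. CD41, the integrin chain encoded by Itga2b, was not on that list and was lower (log2 -0.53). Of 12 maturation and checkpoint antibodies 3 were higher (CD274, CD366 and CD272) and 0 lower, with CD86, CD83, CD80 and CD63 between -0.13 and 0.10 and none of them past the threshold. Of 10 antibodies against uptake, Fc and complement receptors only CD300LG passed, and it was lower, close to the 11.2% over all antibodies.

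Antibodies and the RNA of their genes were set side by side. Of 27 antibodies that passed and had a gene assigned, 25 had RNA that could be tested and 9 had RNA that passed too. Over all genes tested 13.9% passed. In 8 of the 9 the RNA moved the same way as the protein, higher for CD207, CD39, CD38, CD272 and CD366, and lower for CD43 and CD317 among others. The RNA of Mac2 (Lgals3, galectin-3) was higher by log2 0.33 where the antibody, within the isotype range, was lower. RNA of Cd226, Cd22, Itgam and Tfrc did not pass, with log2 differences of -0.30, -0.60, -0.42 and -0.07. Cd226, Cd22 and Itgam were close to the detection limit, at most 2.28, 2.28 and 1.41 CPM in the groups compared. Klrk1 RNA, which encodes the NK receptor NKG2D, went from 102 to 60.9 and from 99.3 to 49.9 CPM (log2 -0.86, SE 0.06), whereas its antibody CD314 did not pass (log2 -0.27, adjusted p = 0.103 in edgeR) at 3.23 to 4.64 per 10000.

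**Figure D3:**
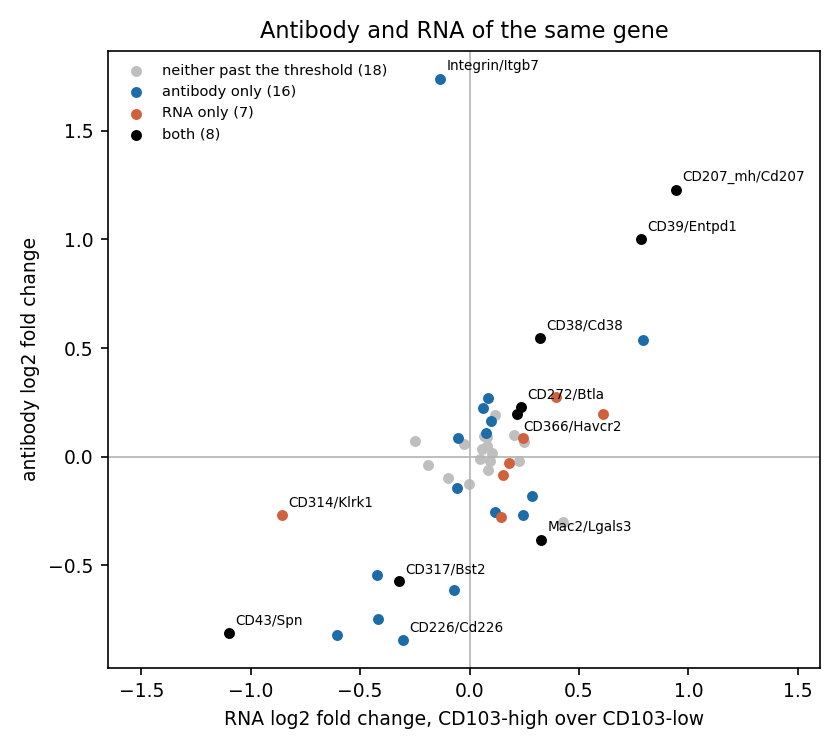
Log2 fold change (CD103-high over CD103-low) of 49 antibodies against that of the RNA of the same gene. In 8 of the pairs plotted both passed the test (black), in 16 the antibody alone, in 7 the RNA alone and in 18 neither, and Integrin, paired with Itgb7, stands apart at 1.74 for the antibody and -0.13 for the RNA.

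Among RNAs of at least 10 CPM, those that rose most after Itgae were hemoglobin genes, which are treated with the markers of other cells below, and then a group of surface, secreted and iron-related genes. Apoe, an apolipoprotein and target of the nuclear receptor LXR, went from 55.5 to 108 CPM in library 1 and from 55.8 to 109 in library 2 (log2 0.98, SE 0.08, adjusted p = 7.11e-10 in edgeR). Cd207 went from 27.1 to 49.7 and from 13.5 to 26.8 CPM (log2 0.94, SE 0.09, adjusted p = 3.65e-09 in edgeR). The low group of library 1 was as high in Cd207 as the high group of library 2, so the groups overlapped across libraries and differed within each. Hfe, which tunes iron uptake through the transferrin receptor, went from 211 to 344 and from 223 to 393 CPM (log2 0.78, SE 0.04, adjusted p = 4.75e-14 in edgeR). Entpd1, the gene of CD39, went from 27.3 to 46.9 and from 31.5 to 53.0 CPM (log2 0.78, SE 0.06). Apoe, Hfe and Entpd1 rose at every step in both libraries, with no overlap of high and low groups.

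The same selection of rises held Cd300c, an activating receptor (log2 0.97), Lamb3, a laminin chain (log2 0.92), Hmox1, which breaks down heme (log2 0.91, 1.37 and 0.63 in libraries 1 and 2), Qpct, glutaminyl cyclase (log2 0.89), Ltbp2, a matrix protein related to the binding proteins of latent TGF-beta (log2 0.89), and Itm2a (log2 0.77). Apart from Hmox1, their levels lay between 5.82 (Ltbp2) and 8.72 (Qpct) CPM in the low and between 10.6 (Ltbp2) and 15.2 (Qpct) CPM in the high group. Hmox1 was at 18.1 and 32.2 in the low and at 46.9 and 49.4 CPM in the high group.

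RNAs that fell by the most included a protease inhibitor and a filament protein. Serpinb10, a protease inhibitor, went from 28.4 to 15.1 and from 24.2 to 6.98 CPM (log2 -1.31, SE 0.14). Vim, the intermediate filament vimentin, went from 210 to 94.6 and from 202 to 123 CPM (log2 -0.90, SE 0.06, adjusted p = 2.93e-11 in edgeR). The high and low groups did not overlap for Serpinb10 or Vim.

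Ly6c2, a monocyte and precursor surface protein, went from 15.0 to 7.80 and from 30.5 to 15.4 CPM (log2 -0.95, SE 0.10), so library 1 low and library 2 high overlapped. Gpr183, the oxysterol receptor EBI2 that positions immune cells in the spleen, went from 21.9 to 13.1 and from 20.7 to 9.66 CPM (log2 -0.92, SE 0.11). The other falls were Mndal, an interferon-inducible DNA-binding protein (log2 -1.04), the cell cycle kinase Cdk6 (log2 -0.89), Klrk1 (log2 -0.86), Phgdh of serine synthesis (log2 -0.85), interferon-inducible Ifi27l2a (log2 -0.81), Anxa2 and its partner S100a10 (log2 -0.78 and -0.71), the linker histone H1f5 (log2 -0.73), the transcriptional cofactor Lmo1 (log2 -0.72) and osteopontin, Spp1 (log2 -0.69). With at least 10 XCR1 UMIs required, Ly6c2, Mndal and H1f5 had positive values of 0.86, 0.01 and 0.03, none past the threshold. That setting left 222 and 314 cells in the low and in the high group of libraries 1 and 2. Its low group was thus no larger than its high group, unlike the main low group of all members without a CD103 UMI. The low group of that setting may hold cells with CD103 UMIs, and their number is not given here.

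**Figure D4:**
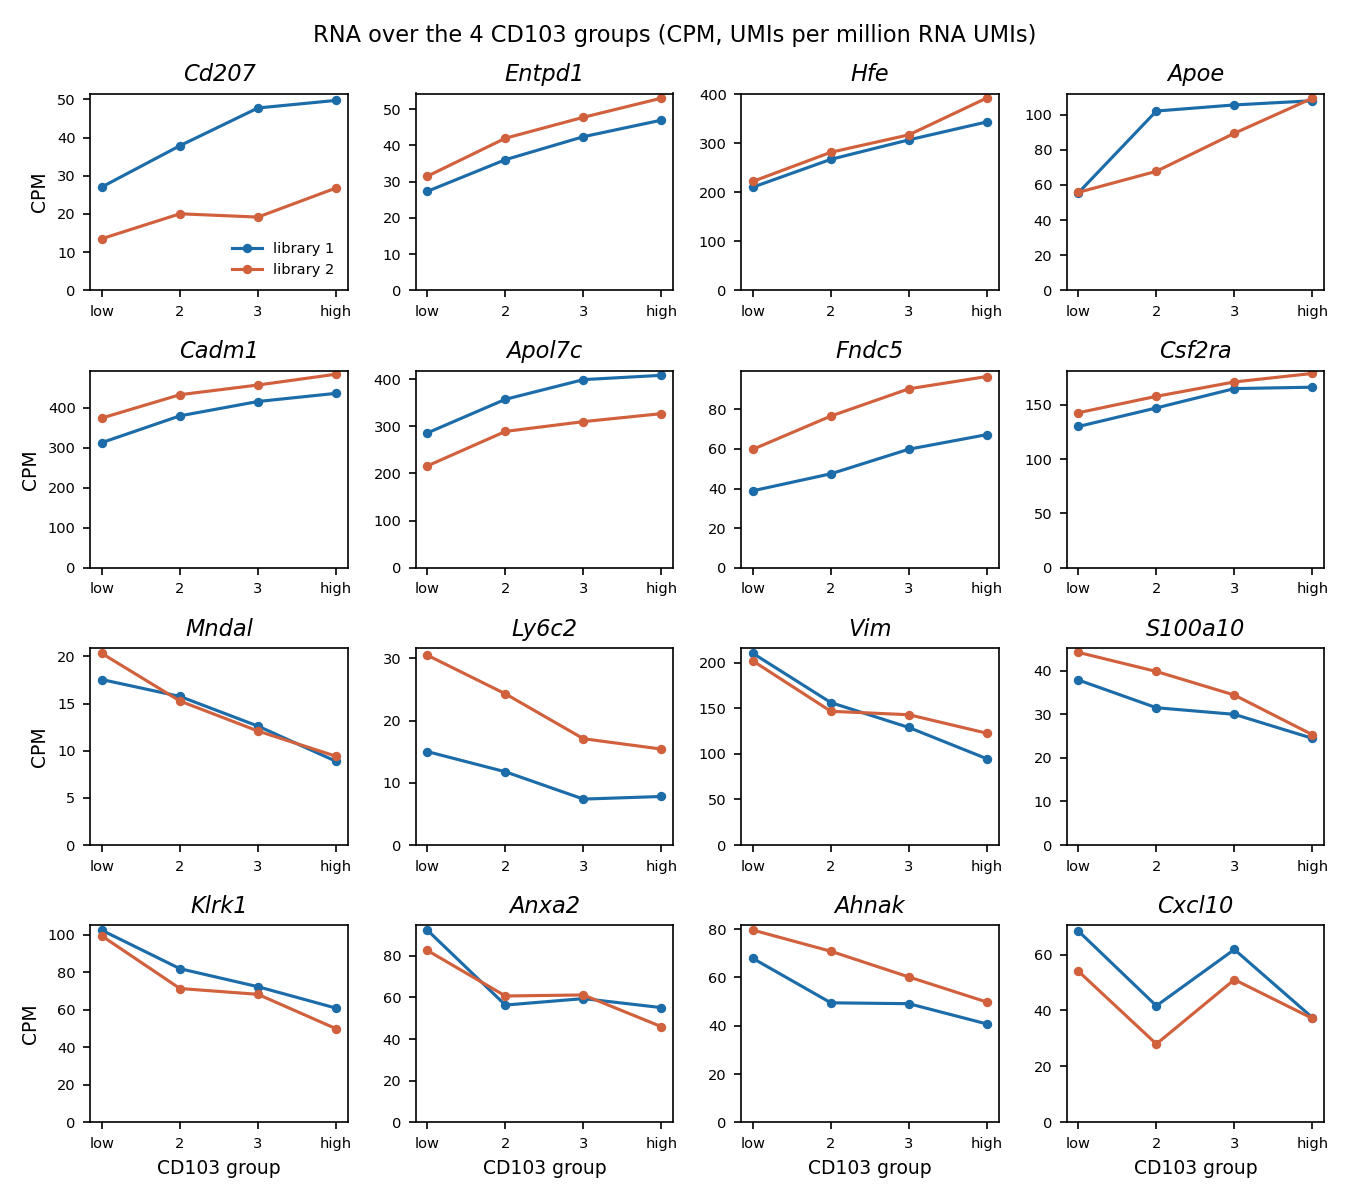
RNA level in CPM over the 4 CD103 groups of members for 16 genes, with 1 line per library and axes from 0. The upper rows show genes that rose, such as Hfe from 211 and 223 to 344 and 393 CPM, and the lower rows genes that fell, such as Vim from 210 and 202 to 94.6 and 123 CPM, while Cxcl10 falls without an order over the middle groups.

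Of 26 genes of the cDC1 identity, all tested, 15 were higher in CD103-high cells and 1 lower (median log2 0.16, against 6.93% higher, 6.99% lower and a median of 0.0037 over all genes), and Itgae itself was 1 of the 15. With at least 10 XCR1 UMIs 6 of the 26 were higher. Cadm1, an adhesion molecule of cDC1, went from 313 to 436 and from 375 to 484 CPM (log2 0.44, SE 0.04, adjusted p = 1e-09 in edgeR). Clec9a went from 281 to 369 and from 316 to 405 CPM (log2 0.39, SE 0.04). Both rose at every step. The endosomal receptors Tlr3 (log2 0.29) and Tlr12 (log2 0.40), the scavenger receptor Cd36 (log2 0.25) and Xcr1 (log2 0.15) were also higher. The transcription factor Irf8 differed by only log2 0.06, and its partner Batf3 did not pass (log2 -0.05, adjusted p = 0.519 in edgeR). Ifi205 was the 1 gene that was lower (log2 -0.15).

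Of 15 MHC class II pathway genes tested, 10 were higher in RNA and 1 lower (median log2 0.13), and 5 were higher with at least 10 XCR1 UMIs. Over all genes 6.93% were higher and 6.99% lower. The MHC class II antibody was lower (log2 -0.19), except with isotype library sizes without IgG1_Rat_l (log2 0.04, not past the threshold). Cd74, the invariant chain, went from 27126 to 29003 and from 27352 to 30127 CPM (log2 0.14, SE 0.01), and H2-Ab1, a beta chain, differed by log2 0.07. H2-Oa and H2-Ob, the chains of the H2-O protein that restrains peptide loading, differed by log2 0.31 and 0.32. March1, a ubiquitin ligase that removes MHC class II from the surface, went from 131 to 169 and from 138 to 168 CPM (log2 0.34, SE 0.05, adjusted p = 5.42e-06 in edgeR). Ciita, the transactivator of the class, differed by log2 0.20, and Ifi30, a thiol reductase of the lysosome, was lower (log2 -0.19). Of 19 MHC class I pathway genes 5 were higher, among them H2-K1, H2-D1 and B2m, and 6 lower, among them Psmb8 and Psmb10 of the immunoproteasome (median log2 -0.03).

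Of 20 tested genes known from early or precursor cDC1, 9 were lower and 2 higher in CD103-high cells (median log2 -0.18). Over all genes 6.99% were lower and 6.93% higher. With at least 10 XCR1 UMIs, 0 of 17 were lower and 1 higher, with a median of 0.026, and Klf4 was at log2 0.43. The low group of that setting had 222 and 314 cells, against 1406 and 2220, and may hold cells with CD103 UMIs. Over all genes 81 passed there, against 1633. The part of the smaller and differently cut low group in these counts was not tested. Ahnak, a large scaffold protein, went from 67.8 to 40.7 and from 79.6 to 49.8 CPM (log2 -0.69, SE 0.06, adjusted p = 6.69e-09 in edgeR), in order over the groups. S100a6 (log2 -0.39), the glycoprotein Emb (log2 -0.70), the transcription factors Klf2 (log2 -0.20) and Klf4 (log2 -0.27) and Crip1 (log2 -0.17) fell beside Ly6c2 and S100a10. Klf4 differed by log2 -0.11 and -0.42 in libraries 1 and 2. Lgals3 (log2 0.33) and the gut-homing receptor Ccr9 (log2 0.24) were the 2 that rose. Of the receptor genes of progenitors, Flt3 was higher (log2 0.14, adjusted p = 0.0191 in edgeR) and Kit did not pass (log2 0.12, adjusted p = 0.239 in edgeR). With the low group limited to cells with at least the median number of antibody UMIs (559 and 818 cells), an alternative chosen after seeing the data, 5 genes of this list were lower and 2 higher. The high group was not limited in that setting. With groups formed within 10 bins of antibody UMIs 9 were lower and 1 higher.

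The rule had removed cells by 6 mitotic genes but used no replication gene. Of 29 S phase genes tested 12 were lower and 0 higher in CD103-high cells (median log2 -0.24), against 6.99% lower and 6.93% higher over all genes. In DESeq2 4 were lower and 18 had no adjusted p, and with at least 10 XCR1 UMIs 0 of 28 were, with a median of -0.21. Mcm3, a part of the replicative helicase, went from 66.1 to 46.2 and from 58.9 to 42.4 CPM (log2 -0.47, SE 0.07, adjusted p = 2.17e-05 in edgeR). Cdt1, which licenses origins, and Tyms, which makes thymidylate, differed by log2 -0.49 and -0.43. With only the low group limited as above 22 were lower and the median was -0.60. Groups formed within 10 bins of antibody UMIs gave 15 lower and a median of -0.32.

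Metabolic and chaperone genes differed by small amounts. Their counts stand beside 6.93% higher and 6.99% lower over all genes. Of 48 nuclear genes of oxidative phosphorylation 25 were lower and 0 higher (median log2 -0.12), from Uqcrb at log2 -0.11 to Atp5g1 at log2 -0.30. Of 16 glycolysis genes 5 were lower, such as Gapdh (log2 -0.25), and Hif1a was higher (log2 0.26). Of 18 genes of the unfolded protein response 9 were lower and 0 higher (median log2 -0.15), with the chaperone Hspa5 at log2 -0.21 and Manf at log2 -0.32. With only the low group limited as above 1 of the 18 was lower and 1 higher, with a median of 0.02. With groups formed within 10 bins of antibody UMIs 8 were lower and 0 higher, with a median of -0.12. With at least 10 XCR1 UMIs 0 of 48 oxidative phosphorylation genes and 0 of 18 of the unfolded protein response were lower, with medians of -0.063 and 0.039. Of 24 actin and migration genes 8 were lower, among them Arhgdib (log2 -0.52), Coro1a (log2 -0.22) and Actb (log2 -0.12). Of 31 immediate early and heat shock genes 14 were higher and 2 lower (median log2 0.08), and 2 were higher with at least 10 XCR1 UMIs. Among the 14 were Ier3 (log2 0.53), Tnf (log2 0.50) and Nr4a2 (log2 0.41), whereas Fos was lower (log2 -0.14).

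Genes of the signals known to raise CD103 were examined next. Of 23 tested cytokine receptor and STAT5 target genes 6 were higher and 0 lower (median log2 0.10), and 0 of 20 passed with at least 10 XCR1 UMIs. Csf2ra, the alpha chain of the GM-CSF receptor, went from 130 to 166 and from 143 to 179 CPM (log2 0.36, SE 0.04, adjusted p = 3.85e-07 in edgeR), rising at every step, and the shared chain Csf2rb did not pass (log2 0.02, adjusted p = 0.823). Il10ra, the IL-10 receptor, was higher by log2 0.37. In the TGF-beta and Runx list 1 of 17 was higher, Skil, an inhibitor of SMAD signals (log2 0.26), and 2 were lower, Runx2 (log2 -0.76) and Nrros, an anchor of latent TGF-beta (log2 -0.21). Tgfbr1 (log2 0.25), Tgfbr2 (log2 0.22) and Runx3 (log2 -0.06) did not pass (adjusted p = 0.198, 0.0617 and 0.53 in edgeR). None of the 7 tested retinoic acid genes passed, at 6.93% higher and 6.99% lower over all genes.

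Of 13 LXR target and cholesterol efflux genes 3 were higher and 0 lower (median log2 0.10), against 6.93% higher and 6.99% lower over all genes. These were Apoe, the exporter Abcg1, from 32.6 to 37.6 and from 28.2 to 41.6 CPM (log2 0.43, SE 0.07, adjusted p = 0.000141 in edgeR), and Soat1, which esterifies cholesterol (log2 0.22). Of 24 cholesterol synthesis genes 3 were lower and 0 higher (median log2 -0.14). Fdps, which makes farnesyl diphosphate, went from 71.9 to 43.6 and from 69.7 to 46.6 CPM (log2 -0.62, SE 0.06, adjusted p = 1.77e-08 in edgeR), Idi1 differed by log2 -0.65 and Mvd by log2 -0.47. With at least 10 XCR1 UMIs 1 of 13 efflux genes was higher and 0 of 22 synthesis genes were lower, and Soat1 and Mvd had the opposite sign (log2 -0.020 and 0.25).

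Maturation genes differed little. Of 24 tested 5 were higher and 0 lower (median log2 0.03), led by Apol7c, an apolipoprotein L of cDC1, from 286 to 408 and from 216 to 327 CPM (log2 0.58, SE 0.04, adjusted p = 1.01e-11 in edgeR). Cd200 (log2 0.61), Il15 (log2 0.38), Marcks (log2 0.27) and Cd86 (log2 0.15) were the others. Of 24 type I interferon-stimulated genes 2 were higher and 4 lower, and of 14 genes induced by interferon gamma 2 were higher and 2 lower. Over all genes 6.93% were higher and 6.99% lower. The chemokine Cxcl10 went from 68.4 to 37.5 and from 54.1 to 37.2 CPM (log2 -0.67, SE 0.08). The related Cxcl9 differed by log2 -0.19, at -0.35 and -0.051 in libraries 1 and 2.

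Markers of other cells were measured in the same sums. The 7 erythroid genes, summed, were at 113 and 152 CPM in the low, 174 and 150 in group 2, 339 and 518 in group 3 and 186 and 408 in the high group, so they were highest in group 3 and followed no order. The 4 hemoglobin genes passed as higher, with Hba-a2 at log2 1.45, Hbb-bt at 1.24, Hba-a1 at 1.15 and Hbb-bs at 1.12. Hbb-bs differed by 0.55 in library 1 and 1.46 in library 2. Without cells carrying more than 1 UMI in sum of erythroid, T, B, NK, neutrophil or plasma cell markers, a filter that itself removes hemoglobin RNA, Hba-a1 stood at log2 -0.09. Itgae RNA and the list counts above were measured with these cells included. The part of free or adhering RNA in them was not tested. With the same filter 1434 genes passed, 15 cDC1 identity genes were higher and 9 early or precursor genes lower. The filter leaves out cells by these markers alone, so it does not measure free RNA of other genes.

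The other marker lists were summed in the same way. Their counts of genes that passed stand beside 6.93% higher and 6.99% lower over all genes. A short list without a call does not show that such cells were absent. Plasma cell markers summed to 115 and 119 CPM in the low, 22.1 and 129 in group 2, 67.1 and 15.2 in group 3 and 149 and 12.5 in the high group, so they were higher in the high group of library 1 and lower in that of library 2. Red pulp macrophage markers summed to 32.0 and 47.4 CPM in the low and 64.5 and 67.8 in the high group, where 1 of 7 tested, Hmox1, passed as higher. Their part in the rise of Apoe and Hmox1 was not tested. Monocyte markers summed to 1160 and 1160 against 1270 and 1280 CPM, with Lyz2 (log2 0.30), Cd300e (log2 0.72) and Treml4 (log2 0.25) higher and Ly6c2 lower. Plasmacytoid DC markers summed to 194 and 201 against 167 and 164 CPM, with Pacsin1 (log2 0.88) and Ccr9 higher and Bst2, Tcf4 (log2 -0.44) and Cox6a2 (log2 -2.17, from under 2 CPM) lower. In libraries 1 and 2 Pacsin1 differed by log2 0.18 and 1.18 and Tcf4 by -0.086 and -0.77. NK cell markers summed to 35.9 and 73.0 against 33.7 and 52.2 CPM, with Gzma and Nkg7 lower. T cell, B cell, cDC2 and neutrophil markers gave no call, at 7, 3, 8 and 4 genes tested, and of plasma cell markers only Derl3 passed (log2 -0.66). T cell markers summed to between 17.0 and 24.9, B cell markers to between 11.9 and 26.4 and cDC2 markers to between 144 and 155 CPM in the low and high groups. Of the defining markers, 1 neutrophil and 1 plasma cell gene were at 0 in both groups, and no other list had one at 0.

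Outside the members CD103 was compared as a description, since CD103 set the groups. Members summed to 20.2 and 20.7 CD103 UMIs per 10000 antibody UMIs, with Itgae at 44.3 and 42.5 CPM. XCR1-positive CD172a-low cells left out for at least 2 Ccr2 UMIs (361 and 505 cells), a marker of young cDC1, had 15.3 and 12.4 CD103 per 10000 and 12.7 and 15.0 CPM of Itgae. Of these Ccr2-expressing cells 50.7% and 51.1% had no CD103 UMI, against 35.4% and 35.8% of members. Mitotic cells had 19.1 and 18.8 CD103 per 10000 and 14.2 and 15.1 CPM of Itgae. Late mature cells, with at least 10 Ccr7 and 5 Fscn1 UMIs (94 and 120 cells), had 18.6 and 14.6 CD103 per 10000 and 13.9 and 14.0 CPM of Itgae. Itgae RNA as CPM was thus lower than in members in all of these cells, while the surface level was nearest to that of the members in mitotic cells.

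Cells of other lineages set the background. The cDC2-type cells (1190 and 943) had 2.2 and 1.87 CD103 per 10000 and 4.35 and 2.98 CPM of Itgae, and B-cell RNA-positive cells (113 and 115) 1.57 and 2.29 per 10000. The Integrin antibody was at 114 and 95.5 per 10000 antibody UMIs in cDC2-type cells, 48.3 and 47.2 in B-cell RNA-positive cells and 102 and 98.4 in members. Between members and cDC2-type cells CD103 thus differed in both libraries, while the Integrin levels of the 2 overlapped.

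**Figure D5:**
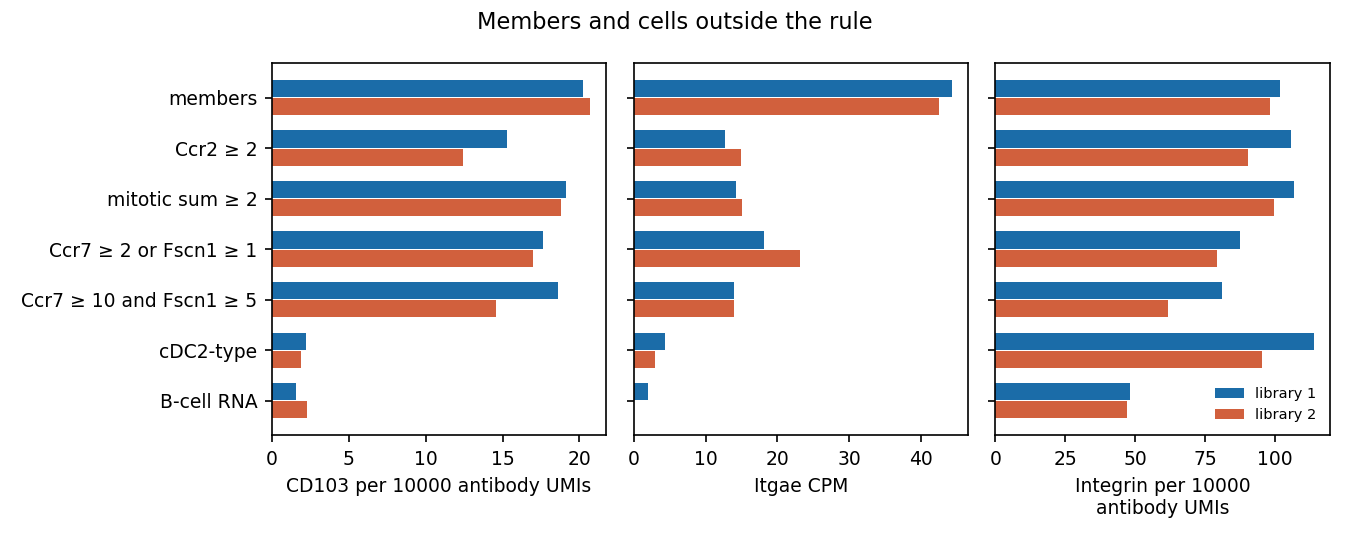
Summed CD103 antibody, Itgae RNA and Integrin antibody in members and in cells outside the rule, with 1 bar per library and axes from 0. The rows from Ccr2 to Ccr7 and Fscn1 are XCR1-positive CD172a-low cells, thresholds are in UMIs per cell, and the CD103 bars fall from 20.2 and 20.7 in members to 2.2 and 1.87 in cDC2-type cells, where the Integrin bars are at 114 and 95.5 against 102 and 98.4 in members.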

How the data were processed

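The authors deposited unnormalized UMI counts of genes and antibodies in single cells, with both libraries in 1 matrix. Cell Ranger 3.1.0 wrote it, per the file headers. The submitters' processing notes list Seurat 3.1.4, STAR and mm10. For the aggregation, a depth setting is not given in the sources used. Library numbers follow the barcode suffix, and no label ties a suffix to a replicate. Library 1 held 13822 barcodes, 99617992 RNA and 13667427 antibody UMIs, and library 2 17968, 129565040 and 17153368. Of all barcodes 29752 passed the cell filter.

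Members and lists were chosen with earlier results of these data known. Counts were summed per group and library (8 sums) and tested with edgeR 4.0.16 in R 4.3.3 (quasi-likelihood, TMM, filterByExpr for genes, at least 100 UMIs for antibodies, library as a block, two-sided, Benjamini-Hochberg at 0.05). Both groups come from the cells of each library, so the library pairs them by construction. Antibody library sizes left out CD103. Rule genes and XCR1 and CD172a antibodies were not tested. SE was taken as the log2 difference over the root of its F value. The fit was also run on simulated counts with a fixed spread and no difference in gene levels between libraries. That run does not show how the fit handles the spread of these data. No set test was run.

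Named genes are Itgae, Itgb7, the 15 largest rises and 15 largest falls past the threshold with 1 sign in both libraries and at least 10 CPM in the higher group of both (without rule, mitochondrial, Gm and Rik genes), up to 4 members per list by p, and members whose role the text needs. Fndc5 in the RNA plot was chosen after its values were seen. Antibodies are the 10 largest rises and falls and list members. Doublets marked by Scrublet in scanpy 1.11.5, 4.193% and 6.338% of cells, were removed only in an alternative. Other alternatives were other cell filters, groups within bins of depth, scalings, no filter on low counts, DESeq2, no block and single libraries. A few items are not reported here.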

Additional observations from a re-analysis of the deposited data

How the results depend on the processing

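The number of RNAs past the threshold was 1633. It was 1047 for the top 10% of cells (398 and 620) against the unchanged low group (1406 and 2220). With at least 10 XCR1 UMIs (222 and 314 cells in each group) it was 81. DESeq2 gave 546, where 456 of the 1633 had no adjusted p. The other settings with a library block gave between 1255 and 1695. Without the replicate block (no replicate block in the fit) 49 RNAs and 7 antibodies passed, so most calls needed the pairing within a library. Antibody counts of 31 became 11 with at least 10 XCR1 UMIs and 0 with isotype library size (edgeR, 0 also at an unadjusted p under 0.05), where 1 cell held 3374 of 3610 IgG1_Rat_l UMIs in group 2 of library 2. Isotype library size without IgG1_Rat_l, chosen after seeing the data, gave 7. Genes called in both had the same direction in every setting. Shares of cells with an Itgae UMI, thinned, were 3.24% and 2.90% in low and 13.8% and 14.7% in high cells. Itgae was at 2.30 and 2.51 on the log2 scale within library 1 or 2 alone, where no test is possible since no residual degrees of freedom are left.

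Of 2613 values of 154 single results under the alternatives, 2122 were counted as unchanged and 408 kept the direction alone. Another 60 within-library values moved by more than the spread, and 23 values reversed. Unchanged meant the same direction and side of the threshold, except for 125 and 123 values within 1 library, which have no test. For 154 of the 2122 the outcome was fixed, since dividing CD103 by antibody UMIs without CD103 left every group the same. Itgb7 reversed at 0.036 (top 10% against the unchanged low group), 0.45 (at least 10 XCR1 UMIs) and 0.10 (limited low group). Hba-a1 without cells with RNA of other cell types (-0.093) and CD371 with isotype library size (0.0086) also reversed. IA_IE (0.039), CD5 (0.047) and CD371 (0.081) reversed with isotype library size without IgG1_Rat_l. With at least 10 XCR1 UMIs, Mndal (0.011), Ly6c2 (0.86), H1f5 (0.033), Ly6a (0.027), Soat1 (-0.020), Mvd (0.25), Xcr1 (-0.0085), Hspa5 (0.054), Asah1 (-0.017), Klf4 (0.43), Hif1a (-0.025), Tpi1 (0.044), Gzma (0.32), Nkg7 (0.18) and CD49b (0.042) reversed, and the cause was not tested. Antibody depth near 1000 UMIs per cell limits the low group, in which 0 UMIs do not show absence of CD103. With at least 10 XCR1 UMIs the low group was as large as the high group and may also hold cells with CD103 UMIs. Its values thus compare differently cut groups.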

Other observations

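Further gene groups were described in the same comparison of CD103-high with CD103-low immature cDC1. Over all genes tested 6.93% were higher and 6.99% lower, with a median log2 of 0.0037. Of 14 tested toll-like receptor genes and their chaperone 4 were higher and 0 lower (median log2 0.14), namely Tlr3, Tlr11 (log2 0.26), Tlr12 and Unc93b1 (log2 0.19), which carries these receptors to endosomes. Of 14 C-type lectins 4 were higher and 0 lower, Cd207, Clec9a, Clec7a (log2 0.45), which binds beta-glucan, and Clec2d (log2 0.21). Clec7a differed by log2 0.097 and 0.65 in libraries 1 and 2. Of 12 chemokine and homing receptors Ccr9, Cxcr3 (log2 0.23) and Xcr1 were higher and 2 were lower, among them Gpr183. In the Notch list 1 of 9 passed, Notch4, from 20.2 to 29.9 and from 28.9 to 41.2 CPM (log2 0.55, SE 0.07, adjusted p = 1.58e-06 in edgeR). Of 16 coinhibitory genes Havcr2 (log2 0.21), Btla (log2 0.23) and Cd200 (log2 0.61) were higher and Lgals9 (log2 -0.66) lower. Among 51 ribosomal protein genes 8 were higher and 11 lower, with a median of -0.02. Of 28 transcription factors 2 were higher, Irf8 and Ahr (log2 0.21), and 2 lower, Tcf4 and Klf4, close to the shares over all genes. In libraries 1 and 2 Tcf4 differed by log2 -0.086 and -0.77 and Klf4 by -0.11 and -0.42.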
